A study of Mus musculus with 16 samples.

Results

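Amino acid transporters and the branched-chain aminotransferases were followed in naïve CD4+ T cells and in the same kind of cells cultured toward regulatory T (Treg) cells. The set held 10 of the 53090 genes in the count tables: Slc7a5, Slc3a2, Slc1a5, Slc7a1, Slc7a6, Slc7a11, Slc38a1, Slc38a2, Bcat1 and Bcat2. They were chosen by symbol, and each symbol matched 1 gene. Expression was measured by mRNA sequencing in 16 libraries, 4 in each of 4 groups. WT Tn and Aim2-/- Tn were splenic naïve CD4+ T cells taken without culture from wild-type mice and from mice deficient in AIM2, a sensor of cytosolic DNA, both strains on the C57BL/6 background. WT Treg and Aim2-/- Treg were CD4+ T cells of the same genotypes kept for 48 h with antibodies to CD3 and CD28, recombinant human TGF-beta and recombinant mouse IL-2. The cultured groups therefore differed from the Tn groups in stimulation, cytokines and time in culture together, and these cannot be told apart. The sources used here gave no age or sex for single libraries, did not state a sort for FOXP3 after the culture, and did not say whether same-numbered libraries came from the same mouse. The p-values measured the spread between these libraries, which may be partly technical.

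Cells take up amino acids through carriers that exchange one amino acid for another or move it with sodium. Slc7a5 (LAT1) imports leucine and other large neutral amino acids, and it reaches the cell surface only when joined to the glycoprotein Slc3a2 (the heavy chain of CD98), which also serves Slc7a6, a carrier of cationic and neutral amino acids, and Slc7a11, the cystine and glutamate exchanger xCT. Slc7a1 (CAT1) carries arginine and lysine, and Slc1a5 (ASCT2), Slc38a1 (SNAT1) and Slc38a2 (SNAT2) carry glutamine and other neutral amino acids. Bcat1 in the cytosol and Bcat2 in mitochondria transfer the amino group of leucine, isoleucine and valine to alpha-ketoglutarate, the first step of their breakdown. Resting T cells are known to keep uptake low, and T cells stimulated through their receptor are known to raise it.

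In GENCODE M21 on GRCm38 all 10 members were protein-coding genes. Slc7a5 lay on chromosome 8 from 121881150 to 121907694, Slc7a6 on the same chromosome from 106168857 to 106198706, and Slc3a2 on chromosome 19 from 8706882 to 8723369. Slc7a11 spanned chromosome 3 from 49892526 to 50443614 and Slc7a1 chromosome 5 from 148327410 to 148399904. Slc38a1 (96571418 to 96642913) and Slc38a2 (96687392 to 96699730) were neighbours on chromosome 15, both on the minus strand. Slc1a5 (16781340 to 16798274) and Bcat2 (45570153 to 45589711) were on chromosome 7, and Bcat1 was on chromosome 6 from 144993835 to 145076184. Slc7a5, Slc7a11, Bcat1 and Bcat2 overlapped annotated genes on the opposite strand, and Slc7a11 (Gm37692 and Gm37498) and Bcat1 (Gm23071) also overlapped genes on their own strand, with which reads can be shared whatever the strand setting. The library kit kept strand, but the strand setting of the counting is not given in the sources used here, so a share of reads from the opposite strand was not tested.

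Promoter windows of 300 bases (250 before and 50 after the start) from RefSeq on GRCm38.p6 matched 7 of the 10 members with 11 windows. Slc7a5, Slc1a5 and Slc38a1 had no entry. The E-box CACGTG and the C/EBP-ATF response element core TGATGNAA, the latter known as a binding site of ATF4 with C/EBP partners, were searched on both strands, and the ends of these motifs can share bases. Only the Slc7a11 window held a match among the windows of these 7 members. It held the TGATGNAA core at 2 places, beginning 66 and 47 bases before the start (-66 and -47), the second on the opposite strand, while 3.97% of 32851 windows of that length held this core and 7.15% held the E-box. The upstream stretches outside annotated exons are shown for Slc7a11, which held the motif, for Bcat1, which rose most in culture, and for Slc38a2, which fell most. They are written 5′ to 3′ on the gene's strand (minus for all of them), and the capitals mark the matches. The stretches are chr3:50443615-50443863 for Slc7a11, chr6:145076185-145076407 for Bcat1 and chr15:96699731-96699978 for Slc38a2.
Slc7a11: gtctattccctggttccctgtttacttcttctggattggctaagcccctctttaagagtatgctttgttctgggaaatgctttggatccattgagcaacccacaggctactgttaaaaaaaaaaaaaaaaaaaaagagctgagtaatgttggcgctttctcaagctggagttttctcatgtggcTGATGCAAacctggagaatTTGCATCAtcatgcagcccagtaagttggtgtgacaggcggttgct
Bcat1: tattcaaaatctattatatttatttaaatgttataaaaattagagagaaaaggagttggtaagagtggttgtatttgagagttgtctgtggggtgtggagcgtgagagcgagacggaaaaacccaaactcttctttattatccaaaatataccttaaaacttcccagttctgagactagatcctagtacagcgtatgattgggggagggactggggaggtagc
Slc38a2: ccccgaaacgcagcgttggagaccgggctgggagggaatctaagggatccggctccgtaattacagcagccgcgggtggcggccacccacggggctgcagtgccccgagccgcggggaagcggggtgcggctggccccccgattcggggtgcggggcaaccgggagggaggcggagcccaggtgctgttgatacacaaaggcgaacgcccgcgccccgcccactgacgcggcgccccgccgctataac
Bases G and C made up 43.4% of the Slc7a11 stretch, 38.6% of the Bcat1 stretch and 72.2% of the Slc38a2 stretch, which held 2, 4 and 30 CG dinucleotides. A match describes the letters in the window and no binding was measured.

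The tables held 22516424 to 34533316 expected counts per library. Levels are given as CPM (counts scaled to a common library size with TMM factors), and a floor of 3 counts came to 0.0869 to 0.133 CPM, covering counting error only. Aim2, the targeted gene, was at 32.3 to 43.3 CPM in the 8 WT libraries and at 6.61 to 10.8 CPM in the 8 Aim2-/- libraries, so every library sat on its label's side. Cd4 was at 368 CPM or more and Cd3e at 195 CPM or more in all libraries. Foxp3 (477 ± 137 CPM, SD, n = 4) and Il2ra (1450.0 ± 55.3) were high in WT Treg against 2.74 ± 0.97 and 3.46 ± 0.80 in WT Tn. Cd44, Tnfrsf4 and Tnfrsf9, also on the list of 6 Treg culture markers, were higher in every Treg library than in every Tn library. The remaining marker, Ctla4, overlapped between the states in both genotypes. It was at 57.4 to 84.2 CPM in WT Treg, 55.1 to 81.9 CPM in Aim2-/- Treg and 64.5 to 80.6 CPM in Aim2-/- Tn. Its WT Tn libraries are given further below. Markers of other cell types were low: the summed level of 5 B cell markers was at most 2.27 CPM with Ms4a1 at 0 in every library, 6 myeloid markers reached 9.13 CPM, 6 erythroid markers 7.94 CPM, 2 CD8 T cell markers 12.2 CPM and 4 NK cell markers 37.1 CPM. For each of these 5 lists the highest sum was in a Tn library and the Treg sums were lower (at most 1.13, 2.53, 0.203, 4.02 and 8.04 CPM). Cd8b1 was nearly all of the CD8 sum in Tn, and Eomes (12.2 to 20.8 CPM in WT Tn) the largest part of the NK sum. Some genes did not go with the sums, such as Cd8a and Adgre1. These reached 0.337 and 0.54 CPM in WT Treg against 0.136 and 0.341 CPM in WT Tn. The part of other cell types in the culture comparisons was not tested. In bulk RNA, fewer cells expressing a gene and less RNA per cell cannot be told apart.

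The first comparison asked how the members differed between Tn cells and cells in Treg culture. Of 9 members tested in WT cells, 6 rose and 2 fell, and the same was true of 9 members tested in Aim2-/- cells (edgeR quasi-likelihood F test, Benjamini-Hochberg adjusted over all genes tested). The rising members were Slc7a5, Slc7a6, Slc7a1, Slc1a5, Slc38a1 and Bcat1, and the falling ones were Slc38a2 and Bcat2, in both genotypes. Slc3a2 did not pass the test in either genotype, and Slc7a11 was not tested, since fewer than 4 libraries of either genotype held 10 counts of it. Culture moved most genes: 76.9% of 13675 genes tested in WT (37.7% higher and 39.2% lower) and 79.3% of 13713 in Aim2-/- cells (39.1% and 40.2%) passed, so that a member's passing is near the background. The median log2 fold change was 1.26 over the 9 members against -0.05 over all genes in WT, and 1.38 against -0.04 in Aim2-/- cells. The members were chosen with earlier results of these data known, so these medians are a description only. The libraries of Tn and Treg did not overlap for 8 of the 9 members in each genotype, against 72.9% and 74.8% of all genes.

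**Figure D1:**
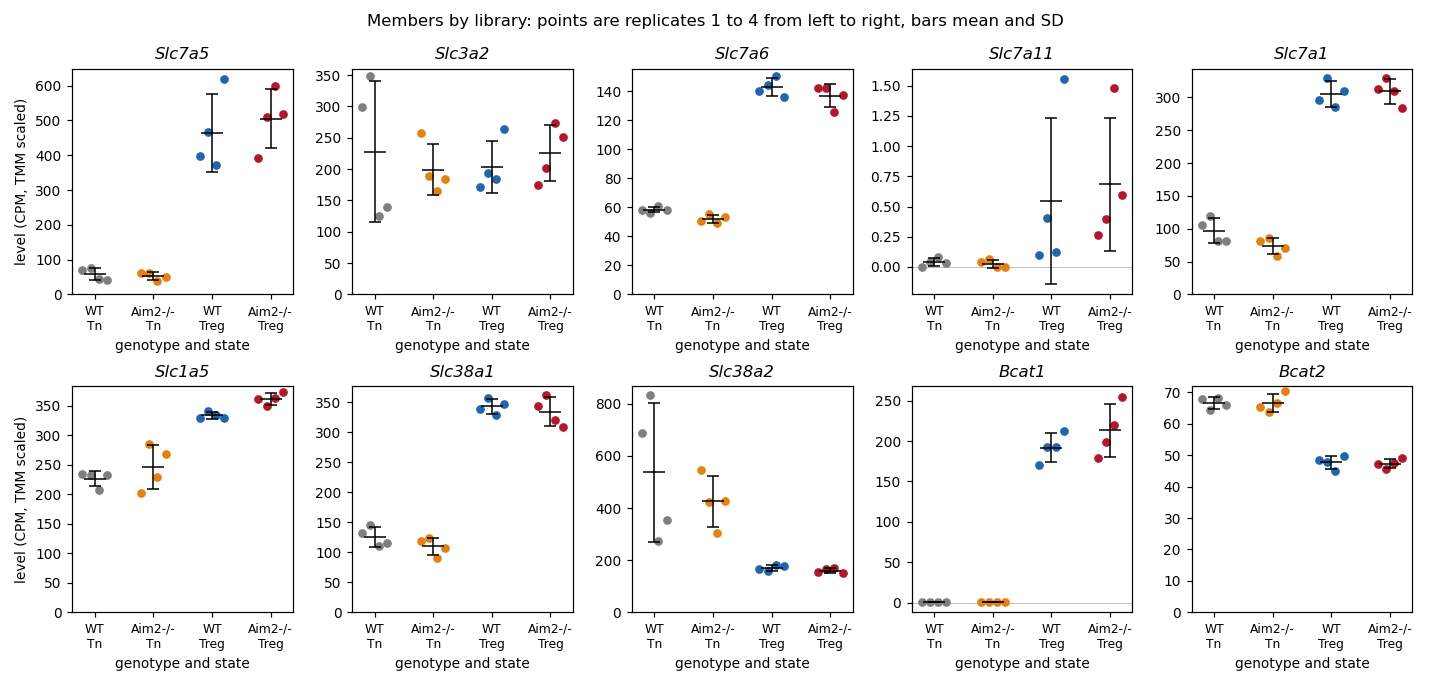
Level of each member in CPM (linear axis) in every library of the 4 groups, with replicates 1 to 4 from left to right and black bars for the mean and SD of 4 libraries. Bcat1 rose from about 1 CPM to between 170.2 and 254.9 CPM, while the Slc3a2 and Slc38a2 points of WT Tn fell apart into replicates 1 and 2 (high) and 3 and 4 (low).

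Slc7a5, the leucine carrier, was at 69.4, 76.8, 44.6 and 41.6 CPM in WT Tn replicates 1 to 4 and at 398, 466, 371 and 620.0 CPM in WT Treg. The Aim2-/- libraries were at 61.7, 62.6, 38.1 and 49.9 CPM in Tn and at 393, 510.1, 599.5 and 517 CPM in Treg. The lowest Treg library was several times the highest Tn library in both genotypes. The log2 fold change of Slc7a5 was 2.96 ± 0.25 (SE) in WT (7.80-fold, adjusted p = 3.74e-06, edgeR) and 3.24 ± 0.18 in Aim2-/- cells (9.43-fold, adjusted p = 4.38e-08), ranking 873 of 13675 and 769 of 13713 genes from the highest.

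Slc3a2, the heavy chain that Slc7a5 needs, did not follow it. It was at 299, 349, 125 and 139 CPM in WT Tn and at 172, 194, 183 and 265 CPM in WT Treg. Its Aim2-/- libraries were at 258, 189, 165 and 184 CPM in Tn and at 175, 202, 274 and 251 CPM in Treg. The Tn and Treg libraries overlapped in both genotypes, and WT Tn replicates 1 and 2 lay above every Treg library. Its log2 fold change was -0.20 (95% interval -0.94 to 0.55, adjusted p = 0.598, edgeR) in WT and 0.17 (-0.20 to 0.53, adjusted p = 0.362) in Aim2-/- cells. Without WT Tn replicate 2 the WT value turned to 0.06 and did not pass.

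The direction for Slc3a2 in WT cells depended on which Tn libraries were used. Among replicates 1 and 2 alone it was lower in Treg (log2 fold change -0.81 ± 0.09, SE, edgeR adjusted p = 8.36e-05), and among replicates 3 and 4 alone it was higher (0.72 ± 0.19, adjusted p = 0.019). Leaving out WT Tn replicates 1 and 2 together, an alternative chosen after seeing the data, gave 0.54 ± 0.18 (adjusted p = 0.0231). In Aim2-/- cells the values among replicates 1 and 2 and among replicates 3 and 4 were -0.27 ± 0.16 (adjusted p = 0.16) and 0.55 ± 0.12 (adjusted p = 0.000762). Fits by replicate number compared 2 libraries with 2, and their Treg libraries changed along with the Tn libraries. Slc3a2 in replicates 1 and 2 was at 0.82 of its level in replicates 3 and 4 in WT Treg, and at 0.72 in Aim2-/- Treg. The labels do not say that these numbers mark a batch.

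The spread of Tn cells was shared by several carriers. WT Tn replicates 1 and 2 averaged 324 CPM of Slc3a2 against 132 in replicates 3 and 4 (a ratio of 2.46), and the ratio was 2.42 for Slc38a2, 1.69 for Slc7a5, 1.39 for Slc7a1 and 1.24 for Slc38a1. It was 1.06 for Slc1a5, 0.96 for Slc7a6 and 0.99 for Bcat2. In Aim2-/- Tn the same ratio was 1.28 for Slc3a2, 1.32 for Slc38a2 and 1.41 for Slc7a5, smaller than in WT, and 1.30 for Slc7a1 and 1.22 for Slc38a1, close to WT. After each group's mean was removed, the log2 levels of Slc7a5, Slc3a2, Slc7a1, Slc38a1 and Slc38a2 correlated with each other over the 8 Tn libraries with Pearson r from 0.80 to 0.99 across the 10 pairs, a description over libraries that share their preparation and scaling. The summed naïve state markers (7 genes) were at 5970.0 and 6190.0 CPM in WT Tn replicates 1 and 2 and at 4540.0 and 4490.0 in replicates 3 and 4. These genes did not spread alike over the WT Tn libraries. Ccr7 ranged from 411 to 1560 CPM and S1pr1 from 379 to 955. The ranges were narrower for Il7r (473 to 528 CPM), Klf2 (253 to 297), Lef1 (479 to 647) and Tcf7 (1510 to 1720). The 6 Treg culture markers summed to 164, 161, 87.2 and 86.7 CPM, of which 81.2, 80.0, 13.1 and 17.6 CPM were Ctla4, an inhibitory receptor, and 82.7, 80.8, 74.1 and 69.1 CPM the other 5 markers. Myeloid markers were at 5.01 and 3.80 CPM in replicates 1 and 2 and at 7.98 and 9.13 CPM in replicates 3 and 4, and CD8 T cell markers at 9.26 and 8.93 against 12.2 and 11.8 CPM. The CD8 sum was nearly all Cd8b1 (8.93 to 12.2 CPM in WT Tn), while Cd8a was at 0 to 0.136 CPM. The other marker lists did not divide this way over WT Tn replicates 1 to 4. B cell markers were at 1.17, 1.07, 1.60 and 1.16 CPM, erythroid markers at 3.97, 1.23, 3.63 and 2.32 CPM, and NK cell markers at 22.1, 24.6, 31.2 and 21.2 CPM. Their part in the spread of the carriers was not tested.

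Slc7a6, a second light chain of Slc3a2, had the smallest spread among the carriers of Tn cells. It was at 58.0, 56.3, 60.6 and 58.5 CPM in WT Tn and at 140.1, 144, 151 and 136 CPM in WT Treg, with no overlap. It went in Aim2-/- cells from 49.2 to 55.4 CPM in Tn up to 126 to 143 CPM in Treg. The log2 fold change was 1.26 ± 0.06 (adjusted p = 7.81e-08, edgeR) in WT and 1.38 ± 0.08 (adjusted p = 1.94e-08) in Aim2-/- cells.

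Slc7a11, the cystine carrier, was the lowest of the members. It was at 0, 0.0395, 0.0845 and 0.0341 CPM in WT Tn and at 0.0375, 0.063, 0 and 0 CPM in Aim2-/- Tn, all below the floor of 3 counts. In WT Treg it was at 0.101, 0.405, 0.121 and 1.56 CPM and in Aim2-/- Treg at 0.264, 0.395, 1.48 and 0.594 CPM. Treg libraries thus lay above Tn libraries but differed many-fold among themselves. The gap was narrow in WT: Treg replicates 1 and 3 held 3.08 and 4.09 expected counts, near the floor, against 2.01 in Tn replicate 3. Pooled over libraries, 63 counts in WT Treg stood against 4 in WT Tn, a ratio of rates of 13.6 (95% interval 5.04 to 51.3), and 78 against 3 in Aim2-/- cells, a ratio of 26.7 (8.81 to 132), intervals that cover counting error only. In each genotype 1 library held most of them, with 42 of the 63 and 44 of the 78 counts. Without WT Treg replicate 4 the ratio was 5.79 (1.95 to 23.2), and without Aim2-/- Treg replicate 3 it was 15.9 (4.99 to 80.7). With no filter on low counts, edgeR gave Slc7a11 a log2 fold change of 3.69 ± 1.07 in WT (adjusted p = 0.0135) and 4.55 ± 0.77 in Aim2-/- cells (adjusted p = 2.19e-05). The expected counts of Slc7a11 were fractional in 13 libraries, so some of its reads were divided between features.

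Slc7a1, the arginine and lysine carrier, was at 106, 119.6, 81.4 and 81.3 CPM in WT Tn and at 297, 329.9, 285 and 309.7 CPM in WT Treg. In Aim2-/- cells it was at 80.6, 85.9, 57.7 and 70.3 CPM in Tn and at 313, 330.4, 309.5 and 284 CPM in Treg, again with no overlap. It rose by 1.62 ± 0.13 on the log2 scale in WT (adjusted p = 2.32e-06, edgeR) and by 2.06 ± 0.12 in Aim2-/- cells (adjusted p = 3.3e-08).

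The glutamine carriers went different ways. Slc1a5 was at 234, 232, 207 and 232 CPM in WT Tn and at 329.6, 342, 334 and 329 CPM in WT Treg, and it rose by only 0.53 ± 0.06 on the log2 scale (adjusted p = 3.35e-05, edgeR). In Aim2-/- cells Slc1a5 was at 202 to 285 CPM in Tn and 349 to 374 CPM in Treg (0.54 ± 0.11, adjusted p = 0.000565). Slc38a1 was at 132, 145, 109.7 and 115 CPM in WT Tn and at 339.5, 357, 329 and 347 CPM in WT Treg, a rise of 1.42 ± 0.10 (adjusted p = 5.7e-07), and the Aim2-/- rise was 1.59 ± 0.11 (adjusted p = 9.27e-08) from 90.8 to 123 CPM up to 308 to 363 CPM.

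Slc38a2, encoded next to Slc38a1, fell. It was at 688, 832, 272 and 356 CPM in WT Tn and at 166, 159, 181 and 177 CPM in WT Treg, and every Treg library was below every Tn library. The Aim2-/- values were 545, 423, 305 and 428 CPM in Tn and 153, 164, 169.9 and 152 CPM in Treg. The log2 fold change was -1.69 ± 0.32 in WT (adjusted p = 0.000979, edgeR) and -1.42 ± 0.15 in Aim2-/- cells (adjusted p = 3.87e-06). Its size in WT rested on the Tn libraries: -2.22 among replicates 1 and 2, -0.85 among replicates 3 and 4, and -0.96 without WT Tn replicates 1 and 2, past the threshold each time.

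Bcat1, the cytosolic aminotransferase, showed the largest rise of the members. It was at 0.795, 0.988, 1.23 and 0.954 CPM in WT Tn and at 170.2, 193, 193 and 213 CPM in WT Treg. Aim2-/- libraries were at 0.862, 1.01, 0.863 and 0.788 CPM in Tn and at 179.6, 198, 219.7 and 255 CPM in Treg. The groups were far apart, and all Tn libraries were above the floor of 3 counts. The log2 fold change was 7.57 ± 0.14 in WT (190.0-fold, adjusted p = 4.95e-10, edgeR) and 7.90 ± 0.15 in Aim2-/- cells (239-fold, adjusted p = 7.62e-12), ranking 126 of 13675 and 110 of 13713 genes from the highest.

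Bcat2, its mitochondrial counterpart, fell modestly with little spread. It was at 68.0, 64.4, 68.1 and 66.0 CPM in WT Tn and at 48.5, 47.9, 44.8 and 49.6 CPM in WT Treg. In Aim2-/- cells it went from 63.7 to 70.6 CPM in Tn down to 45.7 to 49.0 CPM in Treg. The log2 fold change was -0.51 ± 0.07 in WT (adjusted p = 5.43e-05, edgeR) and -0.50 ± 0.07 in Aim2-/- cells (adjusted p = 4.3e-05). The expected counts of Bcat2 were fractional in 7 libraries.

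**Figure D2:**
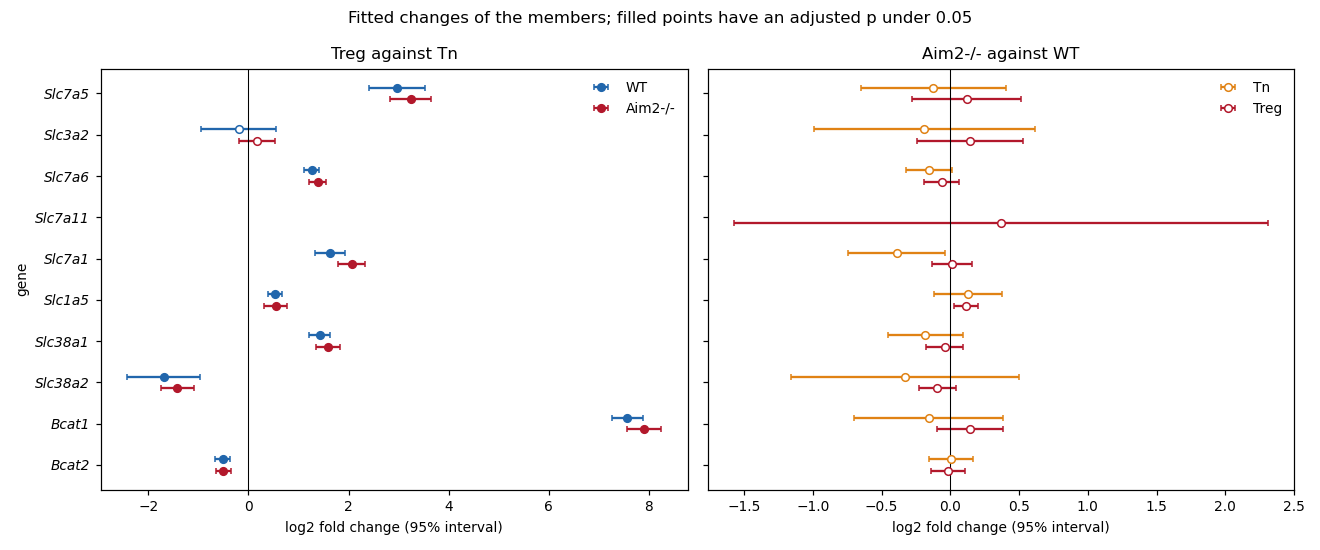
Fitted log2 fold changes with 95% intervals, for Treg against Tn in each genotype (left) and for Aim2-/- against WT in each state (right), with filled points for adjusted p under 0.05. Bcat1 stood apart at 7.57 and 7.90, and no genotype comparison on the right was filled.

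Levels between genes were compared per length, as FPKM (CPM per kilobase of all annotated exons of a gene). In WT Tn the highest members were Slc3a2 (64.6 ± 32.0 FPKM, SD, n = 4), Slc38a2 (60.8 ± 30.2) and Slc1a5 (54.2 ± 3.1), whose libraries overlapped, and these were well above Bcat2 (17.1 ± 0.5), Slc7a5 (15.7 ± 4.7), Slc7a6 (12.8 ± 0.4), Slc7a1 (8.42 ± 1.65) and Slc38a1 (7.28 ± 0.94). Bcat2 could not be set apart from Slc7a5, nor Slc7a5 from Slc7a6, nor Slc7a1 from Slc38a1. Bcat1 (0.106 ± 0.019 FPKM) and Slc7a11 (0.00284) came last.

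In WT Treg the order was different. Slc7a5 led at 125 ± 30 FPKM, followed by Slc1a5 (79.9 ± 1.4), Slc3a2 (57.6 ± 11.8), Slc7a6 (31.2 ± 1.4) and Slc7a1 (26.5 ± 1.7), and none of these neighbours overlapped. Bcat1 (20.6 ± 1.9), Slc38a1 (19.9 ± 0.7) and Slc38a2 (19.3 ± 1.2) overlapped each other, and Bcat2 (12.2 ± 0.5) lay below them. In Aim2-/- Treg Slc7a5 led at 136 ± 23 FPKM, and the order of means was the same, with overlap all the way from Slc7a6 to Slc38a2. With the longest coding transcript as the length, an alternative added after seeing the data, much of the order changed. Slc38a2 ranked first in both Tn groups (115 FPKM in WT). Slc7a5 stayed first in both Treg groups (132 FPKM in WT) but its libraries overlapped those of Slc1a5 (121). Below Slc3a2, the order in WT Treg became Slc38a1 (47.2), Slc7a1 (42.5), Slc7a6 (38.1) and Slc38a2 (36.6), each overlapping the next, and then Bcat1 (24.5) overlapping Bcat2 (22.9).

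**Figure D3:**
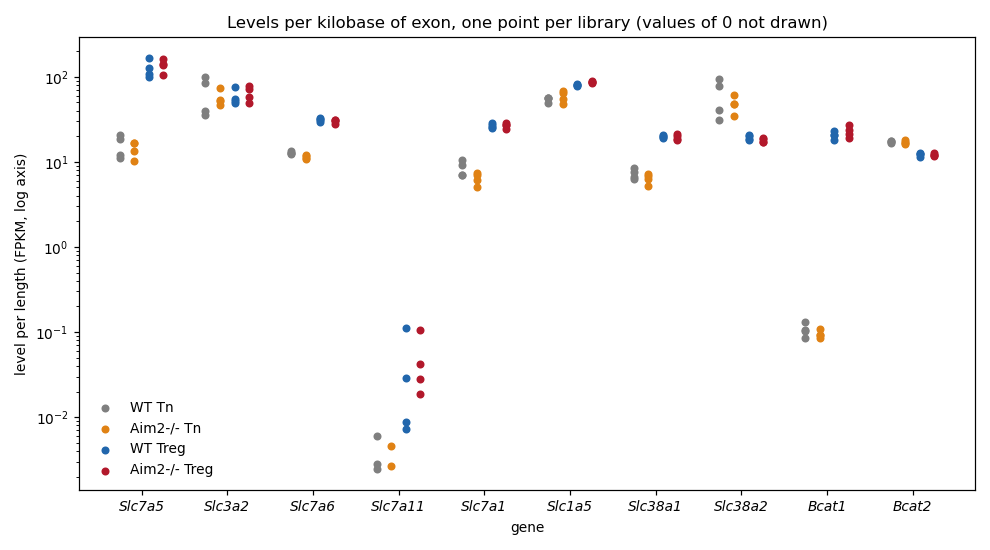
Level per length (FPKM, log axis) of each member in each library, coloured by group, with values of 0 not drawn. Slc7a5 moved from 11.2 to 20.7 FPKM in WT Tn up to 100.1 to 167 FPKM in WT Treg and passed Slc3a2, and Bcat1 moved from about 0.1 FPKM to 20.6 FPKM in WT Treg.

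Ratios within a library compared genes of related function. The ratio of Slc7a5 to Slc3a2, light to heavy chain, was 0.211 to 0.342 in WT Tn and 1.92 to 2.29 in WT Treg, and 0.221 to 0.317 and 1.96 to 2.40 in Aim2-/- cells. The ratio of Slc38a1 to Slc38a2 went from 0.090 to 0.209 up to 0.934 to 1.15 in WT cells and from 0.113 to 0.155 up to 0.970 to 1.15 in Aim2-/- cells. The ratio of Bcat1 to Bcat2 went from 0.011 to 0.013 up to 1.47 to 1.79 in WT cells and from 0.010 to 0.013 up to 1.59 to 2.17 in Aim2-/- cells. All of these were taken on FPKM plus 0.1. The level of a ratio depended on the length used. With the longest coding transcript, Bcat1 to Bcat2 was 0.933 to 1.14 in WT Treg and 1.01 to 1.38 in Aim2-/- Treg, and Slc38a1 to Slc38a2 was 1.17 to 1.44 in WT Treg.

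Each ratio separated the states without overlap in both genotypes. The mean log2 difference between Treg and Tn was 3.06 for Slc7a5 to Slc3a2, 2.96 for Slc38a1 to Slc38a2 and 7.24 for Bcat1 to Bcat2, each with p = 0.00041 in a two-sided exact permutation test within genotypes (adjusted p = 0.00082 over 6 tests). This p is the smallest that the 4900 arrangements allow. For Slc38a1 to Slc38a2 and Bcat1 to Bcat2 it follows from the gene results above. There 1 gene rose and the other fell without overlap in both genotypes, so these p-values add no further support. Single genes whose libraries separated the states made up 72.9% of all genes in WT and 74.8% in Aim2-/- cells. The Bcat value depends on the constant added, since Bcat1 was near 0.1 FPKM in Tn: it was 4.81 with 1 FPKM added. With the longest coding transcript the differences were 3.06, 2.97 and 7.37. Between genotypes, the mean log2 differences were -0.02, 0.04 and 0.04, with p = 0.82, 0.79 and 0.65 (exact permutation within states, each adjusted p = 0.82).

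**Figure D4:**
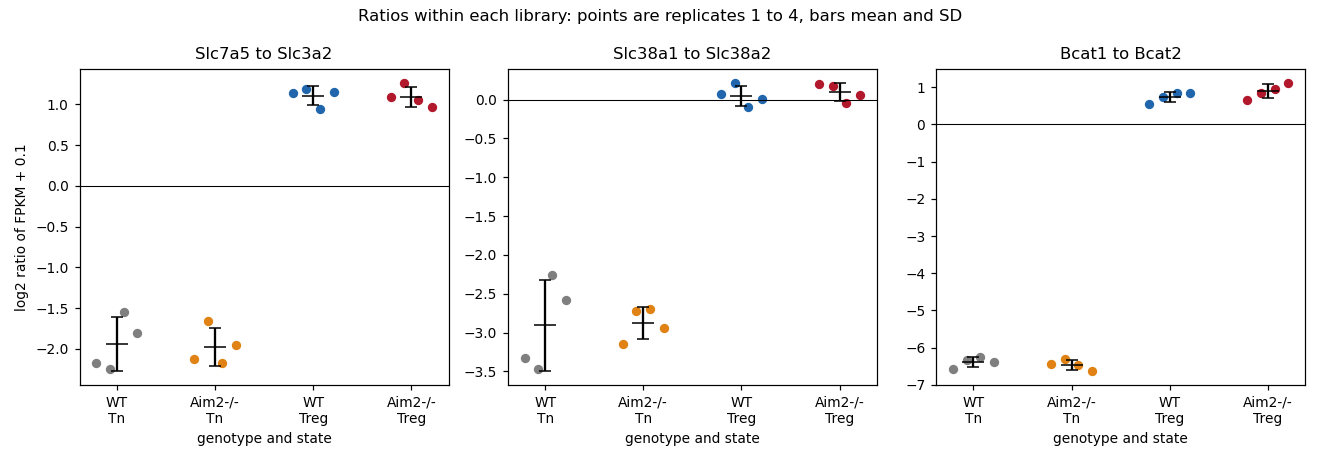
Log2 ratios of FPKM plus 0.1 in each library for Slc7a5 to Slc3a2, Slc38a1 to Slc38a2 and Bcat1 to Bcat2, with points for replicates 1 to 4 and bars for the mean and SD. Tn and Treg libraries are apart in all panels, by 3.06, 2.96 and 7.24 on average, and the genotypes overlap within each state.

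Without an added constant, Bcat1 made up 0.618 ± 0.107% of the summed FPKM of Bcat1 and Bcat2 in WT Tn and 62.7 ± 2.2% in WT Treg, and 0.553 ± 0.079% and 65.1 ± 3.0% in Aim2-/- cells. With the longest coding transcript these shares were 0.394 ± 0.069% and 51.6 ± 2.4% in WT cells and 0.352 ± 0.051% and 54.3 ± 3.2% in Aim2-/- cells. The light chains of Slc3a2 (Slc7a5, Slc7a6, Slc7a7, Slc7a8, Slc7a10 and Slc7a11) summed to 0.514 ± 0.187 per unit of Slc3a2 FPKM in WT Tn and to 2.73 ± 0.15 in WT Treg. Slc7a5 made up 53.5 ± 8.1% of that sum in WT Tn and 79.3 ± 4.1% in WT Treg, Slc7a6 most of the rest, and the others had means of at most 0.291 FPKM in any group. Slc38a2 made up 87.9 ± 4.3% of Slc38a1 and Slc38a2 together in WT Tn and 49.2 ± 2.2% in WT Treg. These are shares of mRNA per length, and protein was not measured.

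The second comparison asked whether the members differed between Aim2-/- and WT cells in the same state. None of 9 members tested in Tn and none of 10 tested in Treg passed (edgeR, smallest adjusted p 0.448 and 0.999), where 0.231% of 13441 genes (0.134% higher and 0.0967% lower) and 0.219% of 13221 genes (0.129% and 0.0908%) passed in all. At an unadjusted p under 0.05 there was 1 member in each state, where 10.3% of all genes in Tn and 2.3% in Treg were under it, and limma-voom and DESeq2 also called 0. The member in Tn was Slc7a1, at 81.3 to 119.6 CPM in WT and 57.7 to 85.9 CPM in Aim2-/- cells, with a log2 fold change of -0.39 (95% interval -0.75 to -0.04, adjusted p = 0.448). Without WT Tn replicates 1 and 2, this value was -0.15 (adjusted p = 0.608). The member in Treg was Slc1a5, at 329 to 342 CPM in WT and 349 to 374 CPM in Aim2-/- cells, with a log2 fold change of 0.11 (0.03 to 0.20, adjusted p = 0.999).

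The libraries of the genotypes did not overlap for Slc7a6 in Tn (56.3 to 60.6 against 49.2 to 55.4 CPM, log2 fold change -0.16, interval -0.32 to 0.01, adjusted p = 0.51) and for Slc1a5 in Treg. That is 1 member in each state, against 6.95% and 2.26% of all genes. The intervals show what the data allow. In Treg they lay between -0.28 and 0.53 on the log2 scale for 9 members, and that of Slc7a11 ran from -1.57 to 2.31. Slc7a5 ran from -0.28 to 0.52, Slc3a2 from -0.24 to 0.53, Bcat1 from -0.10 to 0.39, and Bcat2 from -0.14 to 0.11. In Tn the intervals of Slc3a2 (-0.99 to 0.61) and Slc38a2 (-1.16 to 0.50) were wide, and that of Bcat2 was narrow (-0.15 to 0.16). A p that misses the threshold does not show that the genotypes were alike.

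The interaction term asked whether culture moved the members differently in the genotypes. It passed for 0 of 10 members, and for 0.0205% of 14669 genes. At an unadjusted p under 0.05 there was 1 member, against 3.5% of all genes. That member was Slc7a1, with a difference between the culture effects of 0.42 (95% interval 0.03 to 0.80, adjusted p = 1.0, edgeR) and 0.17 (adjusted p = 0.815) without WT Tn replicates 1 and 2. For Bcat1 it was 0.31 (-0.14 to 0.75), for Slc7a5 0.25 (-0.41 to 0.92) and for Slc1a5 -0.01 (-0.27 to 0.26).

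Within Treg cultures, the light and heavy chains varied together from library to library. WT Treg replicate 4 and Aim2-/- Treg replicate 3 held the highest levels in their groups of Slc7a5 (620.0 and 599.5 CPM), Slc3a2 (265 and 274 CPM) and Slc7a11 (1.56 and 1.48 CPM). After the group means were removed, Slc7a5, Slc3a2 and Slc7a11 correlated with Pearson r of 0.92 to 0.95 over the 8 Treg libraries, and Bcat1 with Slc3a2 at 0.83. Slc7a6 went against Slc7a5 (r = -0.75). These are descriptions over 8 libraries that share scaling, and each library was 1 culture.

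Asns, which makes asparagine, ranked the Treg libraries in a like way. It was at 13.6, 32.1, 25.8 and 70.04 CPM in WT Treg and at 19.4, 44.2, 98.9 and 65.2 CPM in Aim2-/- Treg. Its deviations correlated with those of Slc3a2 (r = 0.96), Slc7a5 (0.91), Slc7a11 (0.91) and Bcat1 (0.82), and less with Slc1a5 (0.14), Slc7a1 (0.04) and Slc38a1 (-0.26). Chac1, which degrades glutathione, was at 0.405, 1.22, 2.17 and 6.70 CPM in WT Treg and at 0.490, 1.72, 8.08 and 5.42 CPM in Aim2-/- Treg, and it was highest in the same libraries. The cultures differed in other genes too. Summed naïve state markers were at 1080, 875, 981 and 733 CPM in WT Treg and at 1080, 888, 731 and 668 CPM in Aim2-/- Treg. Cytosolic aminoacyl-tRNA synthetases summed to 4403, 4804, 4631 and 5483 CPM in WT Treg and to 4409, 5012, 5644 and 5589 CPM in Aim2-/- Treg. What set these cultures apart was not tested.

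**Figure D5:**
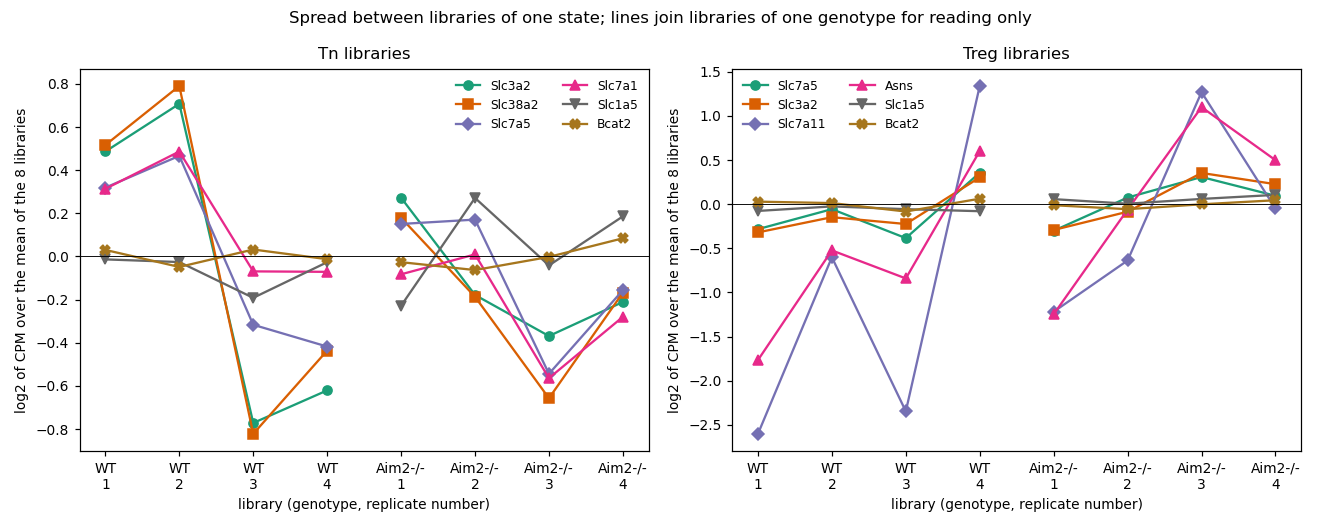
Log2 of CPM over the mean of the 8 libraries of a state, for selected members in Tn (left) and for selected members and Asns in Treg (right), by library. In WT Tn, replicates 1 and 2 are high for Slc3a2, Slc38a2, Slc7a5 and Slc7a1 while Bcat2 stays flat, and in Treg the lines of Slc7a5, Slc3a2, Slc7a11 and Asns peak in WT replicate 4 and Aim2-/- replicate 3.

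The other genes of amino acid uptake and use were read from 4 lists. Of 48 other amino acid transporters, 20 had enough counts in WT, of which 9 rose and 7 fell (9 and 6 of 20 in Aim2-/- cells), and the median log2 change was 0.17 against -0.05 over all genes. Of all genes tested, 37.7% rose and 39.2% fell in WT, and 39.1% and 40.2% did in Aim2-/- cells. In WT cells the largest rises were those of Slc6a9, a glycine transporter (0.376 ± 0.132 to 7.82 ± 6.75 CPM, SD, n = 4), Slc1a4, which carries alanine, serine and cysteine (1.74 ± 0.12 to 21.5 ± 4.1 CPM), and Slc43a1, which carries large neutral amino acids (0.200 ± 0.079 to 2.40 ± 1.32 CPM). The largest falls in WT were those of Slc3a1, the heavy chain related to Slc3a2 (1.96 ± 0.31 to 0.211 ± 0.137 CPM), Slc36a1, a lysosomal and surface carrier of small amino acids (48.4 ± 10.1 to 11.6 ± 0.8 CPM), and Slc7a4 (0.788 ± 0.317 to 0.210 ± 0.043 CPM). All 6 passed the test in both genotypes. In Aim2-/- cells Slc1a2, not tested in WT culture, rose more than these (log2 fold change 5.81 ± 0.67, adjusted p = 8.24e-06, edgeR). Slc1a2 and Slc43a1 had too few counts to be tested between genotypes in Tn, and Slc3a1 and Slc7a4 too few in Treg. Each entered the culture test through the state where it was high, so the filter largely set its direction.

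Beside the aminotransferases, the 24 listed genes of branched-chain amino acid breakdown and its control were all tested, and 8 rose and 13 fell in WT (7 and 12 in Aim2-/- cells), with a median of -0.29. Over all genes tested in WT, 37.7% rose and 39.2% fell, with a median of -0.05. Bckdk, the kinase that inhibits the branched-chain ketoacid dehydrogenase, rose from 23.5 ± 4.4 to 73.3 ± 6.6 CPM (log2 fold change 1.61 ± 0.14, adjusted p = 2.9e-06, edgeR), and Dld and Hibadh rose by 0.90 and 0.54. Bckdhb, a subunit of that dehydrogenase, fell from 8.13 ± 0.18 to 2.66 ± 0.48 CPM (-1.64 ± 0.16, adjusted p = 6.64e-06), and Auh (-1.70) and Aldh6a1 (-1.91), enzymes of leucine and valine breakdown, fell as well. In Tn cells Bckdhb was at 14.8 ± 3.2 CPM in Aim2-/- and 8.13 ± 0.18 CPM in WT and did not pass (log2 fold change 0.87 ± 0.16, adjusted p = 0.0716).

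Of 23 enzymes of glutamine, glutamate and glutathione, 21 were tested, and 12 rose and 4 fell in WT (15 and 4 in Aim2-/- cells), with a median of 1.01. Among all genes tested in WT, 37.7% rose and 39.2% fell, with a median of -0.05. Asns rose from 0.168 ± 0.086 to 35.4 ± 24.4 CPM (log2 fold change 7.65 ± 0.68, adjusted p = 5.65e-06, edgeR), Chac1 from below the floor of 3 counts (at most 0.0691 CPM) to 2.62 ± 2.81 CPM, and the glutaminase Gls2 from 0.330 ± 0.390 to 15.3 ± 2.2 CPM. Asns, Chac1 and Gls2 had too few counts to be tested between genotypes in Tn, where 18 of the 23 were tested. They passed the filter in culture through their Treg libraries, so hardly any call but a rise was open to them. Ggt1, which splits extracellular glutathione, fell from 7.83 to 12.6 CPM in WT Tn down to 0.296 to 1.01 CPM in WT Treg, the alanine aminotransferase Gpt from 5.98 ± 0.64 to 2.76 ± 0.54 CPM, and glutamine synthetase Glul from 130.0 ± 47.9 to 61.1 ± 6.1 CPM. All 20 cytosolic aminoacyl-tRNA synthetases rose in both genotypes, with a median of 1.57 in WT and 1.62 in Aim2-/- cells, led by Iars (69.3 ± 2.6 to 291 ± 48 CPM), Mars (58.2 ± 5.1 to 228 ± 20 CPM) and Gars (104 ± 10.5 to 394 ± 49.8 CPM). No gene of the 4 lists passed between genotypes or in the interaction (edgeR, smallest adjusted p 0.0716), and at an unadjusted p under 0.05 there were 3 of them in Tn, 0 in Treg and 3 in the interaction, against 10.3%, 2.3% and 3.5% of all genes.

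The 4 genes whose log2 levels followed those of Slc7a5 most closely over the 16 libraries, among 8552 genes compared, were Hk2 (r = 0.9964), Nop14 (0.9951), Abhd17c (0.9949) and Ctsc (0.9943). Hk2, a hexokinase of glycolysis, went from 2.06 CPM in WT Tn to 155 in WT Treg, and Ctsc, a lysosomal protease, from 55.7 to 199 CPM. For Bcat1 they were Shmt1 (r = 0.9995), Tfdp1 (0.9990), Ect2 (0.9990), Rcc1 (0.9990) and Arhgap19 (0.9988). Shmt1, the cytosolic serine hydroxymethyltransferase, went from 10.6 to 185 CPM, and Ect2, which acts in cytokinesis, from 2.02 to 58.0 CPM. Since every gene that separates Tn from Treg correlates with every other such gene, these values order a large group and carry no p.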

How the data were processed

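CD4+ T cell mRNA was measured in 16 libraries, 4 in each of WT Tn, Aim2-/- Tn, WT Treg and Aim2-/- Treg, grouped and numbered from their deposited titles. The authors prepared stranded libraries, aligned single-end reads with STAR (GRCm38 genome) and estimated expression with RSEM on GENCODE m15. The authors deposited an expected count per gene and library, without normalization. Tool versions and the strand setting are not given in the sources used here. The authors tested groups with limma-voom, which is an alternative here.

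Here each expected count was rounded. A gene needed 10 counts in 4 or more of the fitted libraries, and edgeR 4.0.16 then tested it by quasi-likelihood (robust fit, TMM factors, two-sided), on the 8 libraries compared or on all 16 for the interaction, with Benjamini-Hochberg adjustment over all genes tested and a threshold of 0.05. FPKM values are TMM-scaled CPM over the exon length of GENCODE M21, a later release than that of the counts, in which 52403 genes (98.7%) had an entry. Ratios were tested by exact permutation on FPKM plus 0.1. The tests were tried on simulated data. Alternatives were limma 3.58.1 (voom), DESeq2 1.42.0, other scalings and filters, a replicate block, 1 fit of all libraries, leaving out libraries, and replicates 1 and 2 or 3 and 4 alone.

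The members, the 4 pathway lists and the marker lists were chosen with earlier results of these data known. The named genes are the 10 members, Aim2, 5 markers (among them Cd4, Cd3e, Foxp3 and Il2ra), from each pathway list the 3 highest and 3 lowest fold changes among genes called in WT culture with libraries that do not overlap, any list gene called by genotype, and the 5 genes most like Slc7a5 and Bcat1 by Pearson r of log2 CPM (prior count 2, mean of at least 10 CPM). Of these, 1 marker and 1 gene most like Slc7a5 are not reported here. Bckdhb between genotypes, the rise of Slc1a2, single genes of the marker lists other than the 5, and the library values of Asns and Chac1 were singled out after their values were seen. The same holds for the Treg library sums of naïve state markers and synthetases. Replicates with the same number were to count as pairs where the deviations of every pair correlated above 0.1, which no comparison met (in Treg 3 of 4 pairs were above it, in Tn 2 of 4), so the numbers were not used as pairs.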

Additional observations from a re-analysis of the deposited data

Results flagged for a closer look

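Slc1a5 in 1 WT Tn library, replicate 3, was far from the others of its group: it was at 207 CPM, while the other replicates were at 232 to 234 CPM, and the gap made up a share of 0.923 of the group's range, above the 95% critical value of Dixon's test for 4 libraries. Of 40 groups checked (10 members in 4 groups), this was 1, and chance alone is set to give about 1 in 20.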

How the results depend on the processing

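The counts of members called with culture were 8 or 9 of those tested in both genotypes under every alternative run, and with genotype and interaction 0. Genes called between genotypes in Tn (31) were 127 with DESeq2, 49 without a filter on low counts, 18 with 10 counts in every library, 50 in 1 fit of all 16 libraries, 15 among replicates 1 and 2, 509 among replicates 3 and 4, and 392 without WT Tn replicates 1 and 2 (added after seeing the data). In Treg (29) they were 52 with DESeq2, 17 with 10 counts in every library, 15 among replicates 1 and 2, and 4 among replicates 3 and 4. For the interaction (3) they were 10 with DESeq2, 0 with 10 counts in every library and 73 without WT Tn replicates 1 and 2. Leaving out 1 library gave 17 to 28 genes in Tn, 10 to 17 in Treg and 2 to 5 for the interaction. The cause was not tested.

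Log2 fold changes that turned their sign were those of Slc3a2 with culture, in WT 0.72 among replicates 3 and 4 and 0.54 without WT Tn replicates 1 and 2, and in Aim2-/- cells -0.27 among replicates 1 and 2. Between genotypes in Tn they were, among replicates 3 and 4 and without WT Tn replicates 1 and 2, Slc7a5 (0.022 and 0.29), Slc3a2 (0.40 and 0.58) and Slc38a2 (0.21 and 0.43), and among replicates 1 and 2 Bcat1 (0.091). Bcat2 in Tn, at 0.005, was -0.012 with DESeq2 and RLE size factors, -0.016 with library totals, -0.017 without a filter, -0.005 with 10 counts in every library, -0.001 in the fit of all libraries, -0.023 among replicates 1 and 2 and -0.021 without WT Tn replicates 1 and 2. In Treg they were Slc7a1 (-0.007 with library totals, -0.009 among replicates 3 and 4), Slc7a6 (0.002) and Slc38a1 (0.021) among replicates 1 and 2, and Bcat2 (0.024) among replicates 3 and 4. With 1 library left out, values ranged from -0.40 to 0.059 for Slc3a2 with WT culture, -0.396 to 0.091 for Slc3a2, -0.261 to 0.04 for Slc7a5 and -0.023 to 0.013 for Bcat2 in Tn, and -0.349 to 1.672 for Slc7a11 (negative without Aim2-/- Treg replicate 3), -0.02 to 0.056 for Slc7a1 and -0.047 to 0.002 for Bcat2 in Treg. Without 1 replicate number the log2 ratio by genotype ranged from -0.141 to 0.055 for Slc7a5 to Slc3a2 and from -0.063 to 0.12 for Slc38a1 to Slc38a2.

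With a replicate block, edgeR called 10355 genes with culture in WT, 10862 in Aim2-/- cells, 29 between genotypes in Tn, 41 in Treg and 2 for the interaction, and 8, 8, 0, 0 and 0 members. The 3 culture ratios kept their values with p = 0.0078 (exact permutation within numbers), and 4, 1, 3 and 5 of 8 libraries in the 4 two-group comparisons correlated best with their own number. Upper quartile scaling moved the median log2 fold change of all genes with culture from -0.05 to -0.17 in WT and from -0.04 to -0.20 in Aim2-/- cells. Depth limits Slc7a11, which lay below the floor of 3 counts in Tn and near it in WT Treg replicates 1 and 3.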
